A study of Mus musculus with 12 samples.

Results

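Ptgs1, Ptgs2, Ptgis and Ptges are 4 genes of prostaglandin synthesis among the 41214 rows of a mouse RNA-seq table. They were chosen from their measured values in these libraries, with earlier results in view, so their differences between groups are given as a description with no test. Ptgs1 was higher in endocardial than in coronary endothelium at both stages. Ptgs2 and Ptgis changed sides: both were higher in coronary cells at E13 and lower in coronary cells at E17. Ptges stayed under 2 CPM (counts per 1000000 of the scaled library) in every library.

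The 12 libraries hold poly(A) RNA of ventricular endothelium, sorted from mouse embryonic hearts, in 4 groups. The 2 E17 coronary and 2 E17 endocardial libraries came from embryos hemizygous (Tg/0) for Nes-Gfp and for Nes-CreER, with 1 R26 tom allele (tom/+), that were given 0.1 ug tamoxifen at E15.5 and collected at E17.5. The 4 E13 coronary and 4 E13 endocardial libraries came from Nes-gfp (Tg/0) embryos collected at E13.5, with no Cre, Tomato reporter or tamoxifen. All cells were sorted as viable, Ter119-negative, CD45-negative and CD31-positive. At E17 the stated coronary gates were Emcn-low and GFP-positive with Tomato either present (arterial and capillary) or absent (venous), and it is not stated which gate the libraries came from; the endocardial gate is stated as GFP-positive. At E13 the coronary gate was GFP-positive, and the endocardial gate was GFP-low and Emcn-high. The gates therefore rest on a Nestin transgene and on endomucin protein, and the sources used here do not give the number of embryos behind a library. The batch label runs from 1 to 6 and pairs 1 coronary with 1 endocardial library; batches 5 and 6 are E17 and batches 1 to 4 are E13. Stage, genotype, tamoxifen, batch and the sort gates, which were stated differently at E17 and E13, therefore cannot be told apart in any E17 against E13 comparison. The same holds where a coronary minus endocardial difference is compared between stages.

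Prostaglandin synthesis starts when phospholipases release arachidonic acid from membranes. The cyclooxygenases, PTGS1 (COX-1) and PTGS2 (COX-2), convert it to the unstable intermediate prostaglandin H2, which terminal synthases turn into the individual prostanoids. PTGIS makes prostacyclin, the best-known endothelial prostanoid, which relaxes vessels and restrains platelets, and PTGES makes prostaglandin E2. Ptgs1 is usually described as constitutive, whereas Ptgs2 is an inducible gene that responds to growth factors, shear stress and cytokines.

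Total expected counts ran from 14973633 to 27360653 per library. The population labels were set beside marker genes, from lists chosen with earlier results of these data known, so this is no independent check. The summed level of 7 endocardial markers was 178 and 189 CPM in E17 coronary libraries, against 5806 and 6106 CPM in E17 endocardial libraries, and 987 to 1308 CPM in E13 coronary libraries, against 4565 to 4859 CPM in E13 endocardial libraries. Npr3, an endocardial marker, averaged 224 CPM in E13 coronary libraries, so its transcript was present there. Of the 7 endocardial markers, 7 were lower in coronary cells at E17 and 6 at E13, beside 26.1% and 29.9% of all tested genes. Nfatc1 averaged 231 CPM in E13 coronary and 216 CPM in E13 endocardial libraries. The 10 coronary capillary and arterial markers all passed the test upward in coronary libraries at both stages. Of all tested genes, 26.5% did so at E17 and 30.1% at E13.

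The 2 cyclooxygenase genes lie on different chromosomes, and their start regions were searched for 5 motifs. Ptgs1 spans chr2:36230426-36252272 on the plus strand and Ptgs2 spans chr1:150100031-150108227 on the plus strand in GRCm38, and each has 11 exon blocks. No stretch of 50 bases was shared between their annotated transcripts. The start regions are shown because these genes carry the contrast in the results below: Ptgs1 kept its side at both stages and Ptgs2 did not. They come from RefSeq (GRCm38.p6), which matched 3 of the 4 symbols, all but Ptgis, and run from 250 bases before to 50 bases after the gene start, written 5′ to 3′ on the strand of the gene. Capitals mark matches to the motifs named after them.
Ptgs1 chr2:36230176-36230475 (+): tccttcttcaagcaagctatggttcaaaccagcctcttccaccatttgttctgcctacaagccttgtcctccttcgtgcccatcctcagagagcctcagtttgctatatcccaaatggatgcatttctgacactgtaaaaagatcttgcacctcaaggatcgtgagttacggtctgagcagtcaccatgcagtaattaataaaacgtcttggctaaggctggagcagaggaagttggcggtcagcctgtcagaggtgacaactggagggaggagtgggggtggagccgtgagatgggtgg
Ptgs2 chr1:150099781-150100080 (+): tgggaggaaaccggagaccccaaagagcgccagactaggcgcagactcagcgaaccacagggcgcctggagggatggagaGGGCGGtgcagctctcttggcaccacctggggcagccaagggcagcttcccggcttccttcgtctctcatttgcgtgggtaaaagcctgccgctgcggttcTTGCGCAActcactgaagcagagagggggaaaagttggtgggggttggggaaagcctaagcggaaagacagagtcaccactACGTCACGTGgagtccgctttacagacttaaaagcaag
Motifs were searched on both strands: the GC box GGGCGG, the C/EBP palindrome TTGCGCAA, the cAMP response element motif ACGTCA, the E box CACGTG and the TATA box TATAAA. The Ptgs2 window held GGGCGG at position 81, TTGCGCAA at position 182, ACGTCA at position 263 and CACGTG at position 267, counted from 1 at the 5′ end of the window, where the gene starts at 251. The last pair overlap by 2 bases in the run ACGTCACGTG. Of 32851 start regions of this length, 0.183% held TTGCGCAA, 7.513% ACGTCA, 7.15% CACGTG, 35.658% GGGCGG and 13.616% TATAAA. The Ptgs1 window held none of the 5 motifs. The Ptges window, not shown, held GGGCGG at positions 198 and 209. The windows were compared by these motifs only, and the part of the motifs in the expression values was not tested. A match describes the letters of the window, not binding.

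Ptgs1, the first cyclooxygenase, had the highest level per kb of exon of the 4 genes in endocardial cells. It had 27.8 and 28.3 CPM in E17 coronary libraries, against 207 and 254 CPM in E17 endocardial libraries. It had 19.7, 17.2, 27.2 and 27.3 CPM in the E13 coronary libraries of replicates 1 to 4, against 148, 126, 133 and 156 CPM in the E13 endocardial libraries. Every coronary library lay below every endocardial library, at both stages. The coronary minus endocardial difference was -3.04 ± 0.20 on the log2 scale at E17 (edgeR estimate ± SE), or 8.21-fold lower in coronary cells, and -2.63 ± 0.14 at E13, or 6.18-fold lower. In the same comparisons 26.1% of the 15171 genes tested passed downward at E17 and 29.9% at E13. Between stages the difference was 0.30 ± 0.18 in coronary cells, where the lowest E17 library (27.8 CPM) exceeded the highest E13 library (27.3 CPM) by less than 1 SD of the E13 group (5.18 CPM). It was 0.71 ± 0.15 in endocardial cells, with the E17 libraries above all E13 libraries. The order of the group means, E17 endocardial, E13 endocardial, E17 coronary, E13 coronary, is thus separated beyond the spread except at its last step. In sorted bulk populations, fewer expressing cells and less RNA per cell cannot be told apart. An antisense gene, Gm43621, covers 3.81% of the Ptgs1 exon length.

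Ptgs2, the inducible cyclooxygenase, was the gene whose side changed most. It had 0.96 and 0.479 CPM in E17 coronary libraries, from 14 and 8 counts, against 13.4 and 14.8 CPM in E17 endocardial libraries, from 246 and 228 counts. It had 3.57, 5.85, 4.49 and 3.15 CPM in E13 coronary replicates 1 to 4, against 1.65, 1.06, 1.05 and 1.07 CPM in E13 endocardial replicates 1 to 4. No 2 of the 4 groups overlapped, and the order was E17 endocardial, E13 coronary, E13 endocardial, E17 coronary. The last 2 groups of that order were close, with the lowest E13 endocardial library at 1.05 CPM and the highest E17 coronary library at 0.96 CPM.

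The coronary minus endocardial difference of Ptgs2 was -4.30 ± 0.39 at E17 and 1.802 ± 0.25 at E13 on the log2 scale, a difference between stages of -6.10 ± 0.46. At E17 the pooled counts, 22 in coronary and 474 in endocardial libraries, gave a ratio of 0.0504 after scaling by library size. At E13 they were 349 and 105, with a ratio of 3.78. For the difference between stages, 16.5% of all tested genes passed downward and 16.2% upward. The E17 minus E13 difference of Ptgs2 was -2.58 ± 0.36 in coronary cells and 3.52 ± 0.27 in endocardial cells, opposite in sign in the 2 populations. In these stage comparisons, 24.6% of tested genes passed upward and 25.6% downward in coronary cells, and 16.2% upward and 15.6% downward in endocardial cells. The antisense gene Ptgs2os had 1 count in the 12 libraries together.

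**Figure D1:**
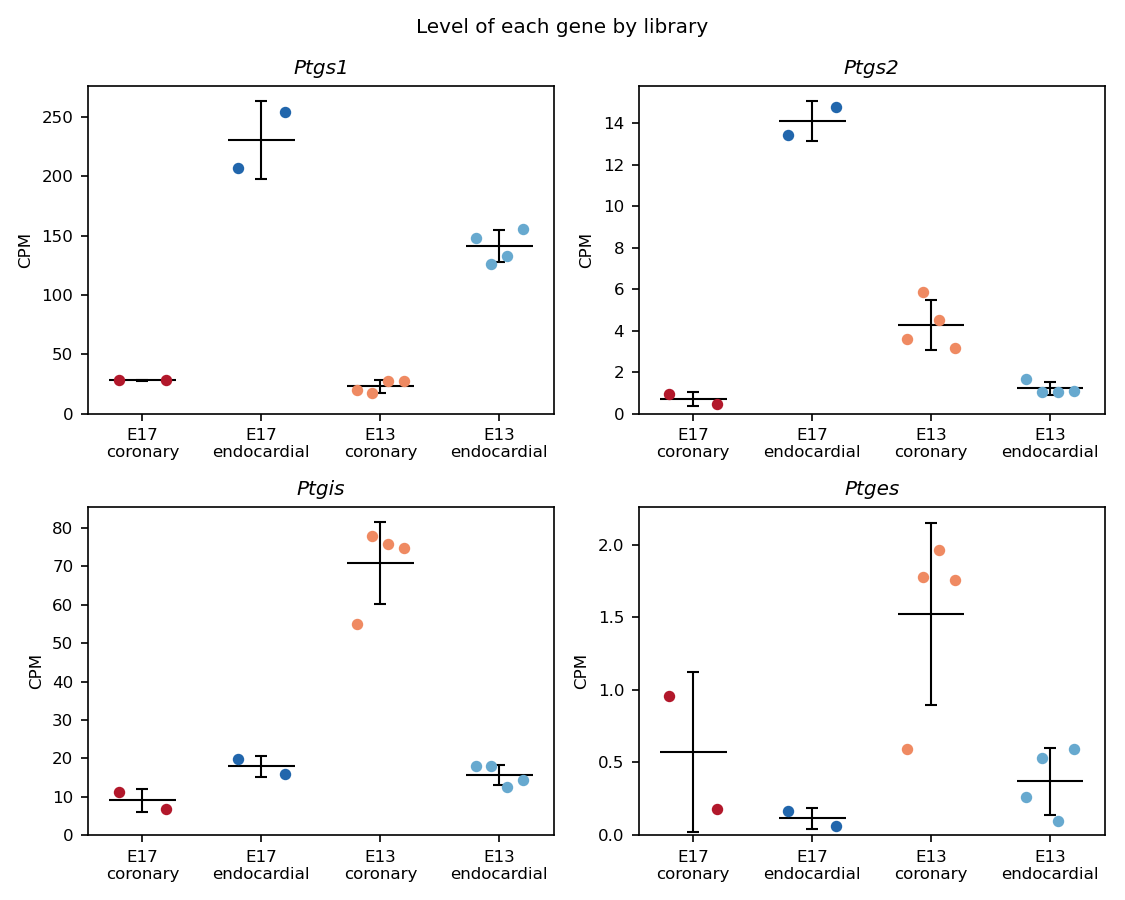
CPM of each gene in every library (points), with the group mean (horizontal line) and SD (bar); n = 2 for each E17 group and 4 for each E13 group. Ptgs1 is high in both endocardial groups, Ptgs2 is highest in E17 endocardial libraries (13.4 and 14.8 CPM), Ptgis in E13 coronary libraries (55.0 to 77.8 CPM), and Ptges stays under 2 CPM.

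Per length of exon, Ptgs1 exceeded Ptgs2 in all 12 libraries, but by very different margins. Ptgs1 averaged 7.22 CPM per kb in E17 coronary, 59.4 in E17 endocardial, 5.88 in E13 coronary and 36.3 in E13 endocardial libraries. On the same scale Ptgs2 averaged 0.157, 3.08, 0.931 and 0.264 CPM per kb in those groups. As a share of both cyclooxygenase transcripts per kb, Ptgs2 made up 2.84% and 1.42% in E17 coronary libraries, against 5.21% and 4.7% in E17 endocardial libraries. At E13 it made up 13.3%, 22.4%, 12.3% and 8.9% in coronary replicates 1 to 4, against 0.937%, 0.704%, 0.665% and 0.58% in endocardial replicates 1 to 4. The Ptgs2 share was thus highest in E13 coronary cells, where Ptgs1 was low, although the Ptgs2 level itself was highest in E17 endocardial cells.

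**Figure D2:**
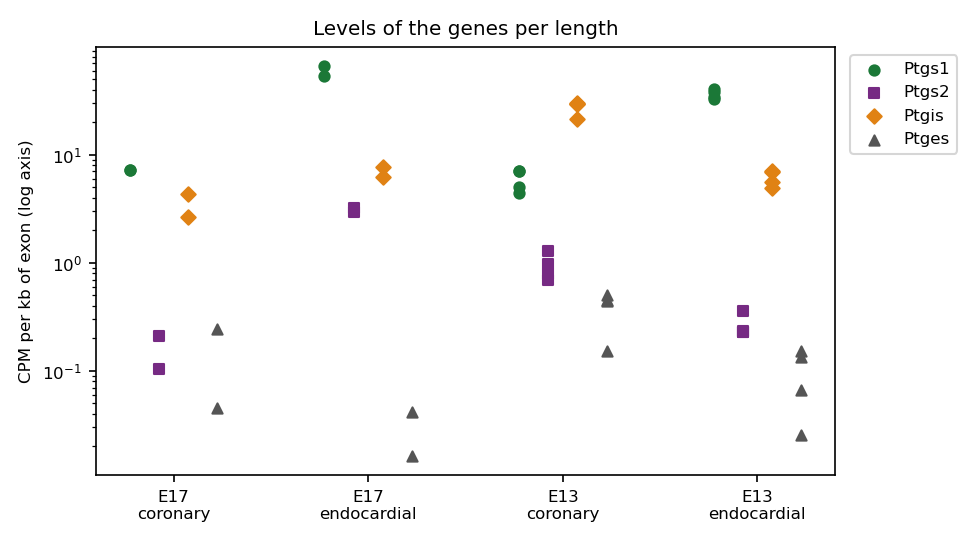
Level of each gene in CPM per kb of annotated exon (log axis), 1 point per library, by group. Ptgs1 lies above Ptgs2 in every group, Ptgis is the highest of the 4 genes in E13 coronary libraries (21.4 to 30.3 CPM per kb), and Ptges is the lowest in E17 endocardial, E13 coronary and E13 endocardial libraries.

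Ptgis, the prostacyclin synthase at chr2:167191805-167240604 on the minus strand (GRCm38), was a gene of the E13 coronary libraries. It had 11.2 and 6.83 CPM in E17 coronary libraries, against 19.8 and 16.01 CPM in E17 endocardial libraries. It had 55.0, 77.8, 75.9 and 74.9 CPM in E13 coronary replicates 1 to 4, against 17.9, 18.0, 12.6 and 14.3 CPM in E13 endocardial replicates 1 to 4. The E13 coronary libraries stood above all others and the E17 coronary libraries below all others, while the endocardial groups overlapped between stages. The lower gap was narrow, with the highest E17 coronary library at 11.2 CPM and the lowest E13 endocardial library at 12.6 CPM.

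The coronary minus endocardial difference of Ptgis was -1.004 ± 0.25 at E17 and 2.17 ± 0.16 at E13 on the log2 scale, a difference between stages of -3.17 ± 0.30. The E17 minus E13 difference was -2.99 ± 0.23 in coronary cells, or 7.93-fold lower at E17, and 0.19 ± 0.20 in endocardial cells. Among all tested genes, 30.1% passed upward in coronary cells at E13. Per kb, Ptgis averaged 27.6 CPM in E13 coronary libraries beside 5.88 for Ptgs1, whereas in E17 endocardial libraries it averaged 6.97 CPM per kb beside 59.4 for Ptgs1. The antisense gene 1110018N20Rik covers 6.08% of the Ptgis exon length.

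Ptges, the inducible prostaglandin E synthase at chr2:30889471-30929863 on the minus strand (GRCm38), rested on few counts. It had 14 and 3 counts (0.96 and 0.18 CPM) in E17 coronary libraries, against 3 and 1 counts (0.164 and 0.0648 CPM) in E17 endocardial libraries. It had 11, 41, 39 and 33 counts (0.595, 1.78, 1.97 and 1.76 CPM) in E13 coronary replicates 1 to 4, against 7, 11, 2 and 10 counts (0.263, 0.528, 0.1 and 0.595 CPM) in E13 endocardial replicates 1 to 4. Neighbouring groups in the order of means all overlapped. Among all tested genes, 26.5% passed upward at E17. The fitted difference was 2.19 ± 1.07 at E17 and 2.05 ± 0.58 at E13. Without E17 coronary replicate 1 the E17 difference was 0.61, so that library decides its size; without E17 coronary replicate 2 it was 2.97, and without E17 endocardial replicate 1 it was 2.99.

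Within every batch the coronary library was compared with the endocardial library of the same number, on log2(CPM + 0.1). Ptgs1 was lower in the coronary library in 6 of 6 batches, from -3.16 to -2.29. Ptgs2 was lower in batches 5 and 6 (-3.67 and -4.68) and higher in batches 1 to 4 (1.06, 2.36, 2.00 and 1.47). Ptgis was lower in batches 5 and 6 (-0.82 and -1.22) and higher in batches 1 to 4 (1.61, 2.11, 2.58 and 2.38). Ptges was higher in the coronary library in all 6 batches, by 0.76 to 3.37. For Ptgs1, Ptgs2 and Ptgis the populations did not overlap within either stage, so any pairing of libraries gives these signs. The batches thus restate the group values above and add no separate evidence.

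**Figure D3:**
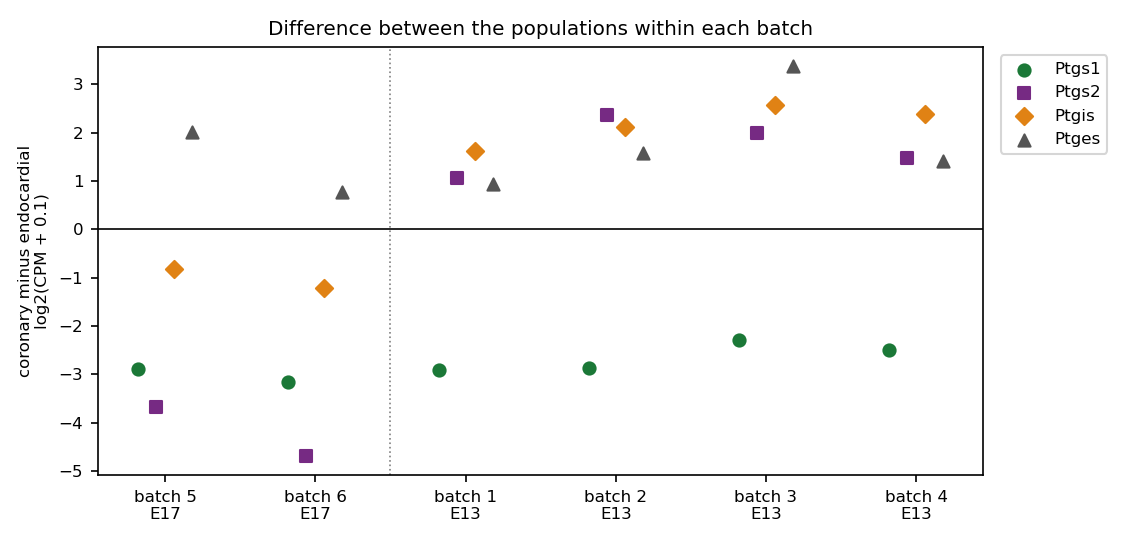
Coronary minus endocardial difference in log2(CPM + 0.1) within each batch, 1 symbol per gene; batches 5 and 6 are E17 and batches 1 to 4 are E13. Ptgs2 and Ptgis lie below 0 in both E17 batches and above 0 in all E13 batches, Ptgs1 lies below 0 and Ptges above 0 throughout. For Ptgs1, Ptgs2 and Ptgis these signs follow from populations that did not overlap within either stage.

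Immediate early genes, which respond to stimulation and also to dissociation of tissue, were followed beside Ptgs2 because it is an inducible gene. Their summed level over 20 genes was 7373 and 7416 CPM in E17 coronary libraries, against 10440.0 and 11460.0 CPM in E17 endocardial libraries. At E13 it was 4306, 5688, 4158 and 3967 CPM in coronary replicates 1 to 4, against 4634, 5314, 2518 and 2840 CPM in endocardial replicates 1 to 4. The sum was highest where Ptgs2 was highest, in E17 endocardial cells, and next highest in E17 coronary cells, where Ptgs2 was lowest.

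By gene, 11 of 20 immediate early genes were higher at E17 than at E13 in coronary cells and 18 in endocardial cells (edgeR, adjusted p under 0.05), the first count being 7 without E17 coronary replicate 2; over all tested genes the shares were 24.6% and 16.2%. The median log2 difference of the list was 0.67 in coronary and 1.53 in endocardial cells, against -0.02 and 0.0 over all tested genes. None was lower by edgeR with or without adjustment, or by DESeq2. Between populations, 1 gene was higher and 3 were lower in coronary cells at E17, and 8 were higher and 0 lower at E13 (by edgeR 1 lower at an unadjusted p under 0.05, by DESeq2 0). Over all tested genes, 26.5% were higher and 26.1% lower at E17, and 30.1% higher and 29.9% lower at E13. With the batch as a block these counts were 3 higher and 6 lower at E17 and 13 higher at E13. Without E17 endocardial replicate 2 or E17 coronary replicate 2, 1 gene was lower at E17. The difference between stages was negative for 7 genes, or 13 with the block, and positive for 1 gene in the main fit. For that difference, 16.5% of all tested genes passed downward and 16.2% upward. The part of these genes in the Ptgs2 values was not tested.

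Fibroblast and mural genes were followed beside Ptgis and Ptges, which such cells can also express. The sum of 9 fibroblast markers was 4812 and 2183 CPM in E17 coronary libraries, against 2453 and 2211 CPM in E17 endocardial libraries. It was 2633, 5228, 6990 and 4848 CPM in E13 coronary replicates 1 to 4, against 2053, 1822, 2035 and 2012 CPM in the E13 endocardial replicates. None of the 9 was at 0 in any group, and Col3a1 and Postn, which led the sum, also averaged 1170 and 652 CPM in E13 endocardial libraries. Within E13 coronary libraries the lowest Ptgis and Ptges levels and the lowest fibroblast sum fell on replicate 1, and within E17 coronary libraries the higher Ptgis and Ptges levels fell on replicate 1, which had the higher sum.

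Across stages the 2 did not keep one ratio. E17 coronary replicate 1 had 4812 CPM of fibroblast genes and 11.2 CPM of Ptgis, while E13 coronary replicate 4 had 4848 CPM and 74.9 CPM. E13 coronary replicate 1 had 2633 CPM of fibroblast genes with 55.0 CPM of Ptgis, and E17 endocardial replicate 1 had 2453 CPM with 19.8 CPM. By gene, 4 fibroblast markers were higher and 2 lower in coronary cells at E17, and 8 of 9 were higher at E13, beside 26.5%, 26.1% and 30.1% of all tested genes. The sum of 9 mural markers was 1117 and 858 CPM in E17 coronary libraries, against 177 and 177 CPM in E17 endocardial libraries, and 377 to 733 CPM in E13 coronary libraries, against 245 to 267 CPM in E13 endocardial libraries. The sum was led in E17 coronary libraries by Abcc9, at 527 CPM, against 146 CPM in E13 coronary libraries, whereas Tagln averaged 13.2 CPM in E17 coronary and 86.5 CPM in E13 coronary libraries. At E17 against E13 in coronary cells, 4 of 9 mural markers were higher and 1 lower. In that comparison 1 of 9 fibroblast markers was higher and 4 were lower (median log2 difference -0.40, against -0.02 over all tested genes). The shares of all tested genes were 24.6% higher and 25.6% lower. The part of these cells in the Ptgis and Ptges values was not tested.

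**Figure D4:**
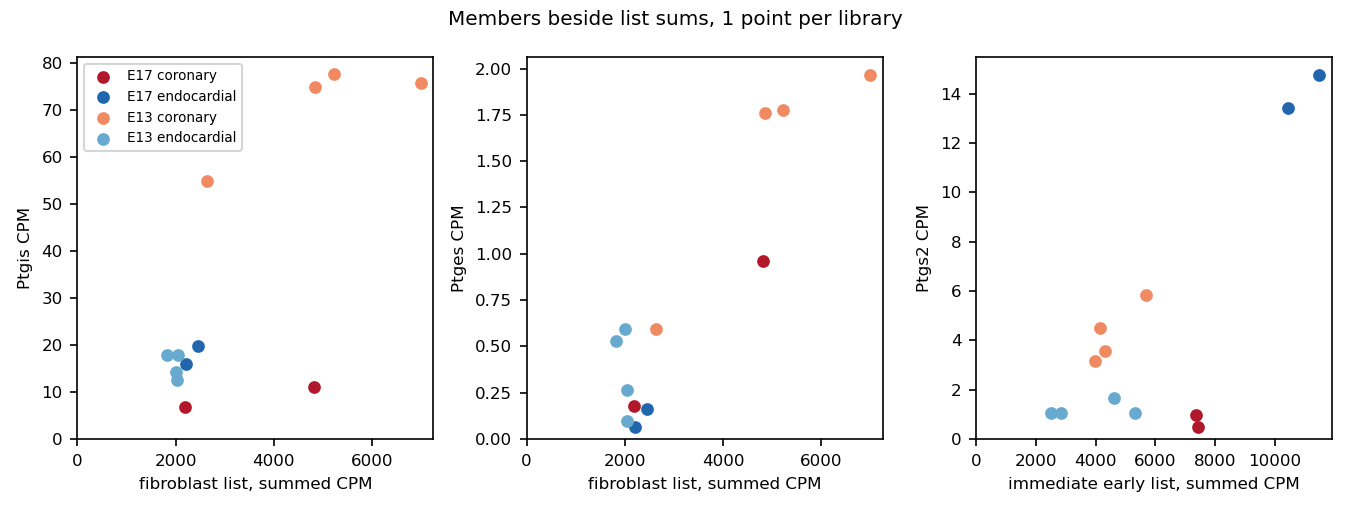
CPM of Ptgis and Ptges against the summed CPM of 9 fibroblast markers, and of Ptgs2 against the summed CPM of 20 immediate early genes, 1 point per library, coloured by group. At fibroblast sums of 4812 and 4848 CPM, Ptgis is at 11.2 CPM in an E17 coronary library and at 74.9 CPM in an E13 coronary library; the E17 coronary libraries join 7373 and 7416 CPM of immediate early genes with under 1 CPM of Ptgs2.

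Blood cells were followed beside Ptgs1, which platelets and macrophages express. CD45-positive cells were excluded by the gate, and Ptprc, which encodes CD45, averaged 0 CPM in E17 coronary, 0.348 in E17 endocardial, 0.0378 in E13 coronary and 0.0678 in E13 endocardial libraries. The sum of 6 platelet markers was 7.55 to 10.01 CPM in E17 coronary, 10.9 to 11.4 in E17 endocardial, 10.55 to 15.55 in E13 coronary and 11.3 to 15.7 in E13 endocardial libraries. None of the 3 platelet markers tested passed between populations at either stage (edgeR, 0 also at an unadjusted p under 0.05, and 0 by DESeq2). The sum of 9 leukocyte markers was higher in coronary libraries (71.0 to 74.5 CPM at E17 and 46.5 to 70.5 at E13) than in endocardial libraries (38.4 to 39.7 at E17 and 20.2 to 26.7 at E13), and Mrc1, which led it, averaged 68.2 CPM in E17 coronary and 19.8 CPM in E17 endocardial libraries. By contrast, Cd68 averaged 2.33 CPM in E17 coronary and 10.5 CPM in E17 endocardial libraries. Csf1r averaged 0.625 CPM in E17 coronary and 3.3 CPM in E17 endocardial libraries. Of 7 tested, 1 was higher and 2 lower in coronary cells at E17 (median log2 difference -2.16), and 2 were higher at E13. The shares of all tested genes were 26.5% higher and 26.1% lower at E17, and 30.1% higher at E13. The part of blood cells in the Ptgs1 values was not tested. The 5 mast cell markers summed to at most 1.43 CPM in any library.

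The genes whose pattern over the 12 libraries was closest to each member were found among 11025 expressed genes, by the root mean square difference of centred log2 CPM. Ptgs1 was closest to Cped1 (0.231), Irx3 (0.249) and Col17a1 (0.25). Irx3, an Iroquois transcription factor, averaged 4.83 CPM in E17 coronary, 36.6 in E17 endocardial, 4.23 in E13 coronary and 30.8 in E13 endocardial libraries. Ptgis was closest to Apcdd1 (0.193), Axin2 (0.223) and Slc1a3 (0.259). Axin2, an inhibitor and target of canonical Wnt signalling, averaged 1.19, 2.91, 11.8 and 2.26 CPM in the same 4 groups, and Apcdd1, a Wnt inhibitor, averaged 18.4, 38.7, 140.0 and 26.8 CPM.

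Ptgs2 had no match as close by this measure: Ces2g (0.574), Cldn11 (0.634) and Inhba (0.638) came nearest. The measure also grows with the spread of replicates. The pooled within-group SD of log2 CPM was 0.37 for Ptgs2, against 0.234 for Ptgs1 and 0.284 for Ptgis. The larger distance therefore does not show that the Ptgs2 pattern is rarer, and its Pearson correlation with Ces2g was 0.937. Ces2g, a carboxylesterase, averaged 2.91 CPM in E17 coronary, 23.0 in E17 endocardial, 15.6 in E13 coronary and 5.53 in E13 endocardial libraries, the same order of groups as Ptgs2. Cldn11, a tight junction claudin, averaged 1.67, 16.9, 8.63 and 4.8 CPM in the same groups. Ptges, at its few counts, was nearest to Mark1 (0.493), Dnph1 (0.548) and Grin3a (0.55). Pearson correlations over the same libraries ran from 0.896 to 0.989 for these 12 genes, which share libraries, depth and the selection for likeness.

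The other genes of the pathway were counted from lists of 52 genes by role, of which 40 passed the filter on low counts. In coronary against endocardial cells, 13 were higher and 14 lower at E17 (median log2 difference -0.17, against -0.01 over all tested genes), and 20 were higher and 12 lower at E13 (median 0.32, against -0.02). At E17 against E13, 10 were higher and 13 lower in coronary cells, and 10 were higher and 5 lower in endocardial cells; the last count was 2 without E17 endocardial replicate 1 and 1 without replicate 2. The difference between stages was positive for 8 and negative for 11. For E17 against E13, the shares of all tested genes were 24.6% higher and 25.6% lower in coronary cells. In endocardial cells they were 16.2% and 15.6%. For the difference between stages, 16.2% were positive and 16.5% negative. Read against the shares of all genes given above, 13 and 14 of 40 at E17 lie beside a background of 26.5% and 26.1%, and 20 and 12 of 40 at E13 beside 30.1% and 29.9%. The genes named below had a group mean of at least 10 CPM, 24 in all, and p-values are from edgeR with Benjamini-Hochberg adjustment over all tested genes.

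Among genes that release arachidonate, Pla2g4a, the cytosolic phospholipase A2 that feeds the cyclooxygenases, differed most at E17. It averaged 1.02 ± 0.60 CPM in E17 coronary libraries, against 29.7 ± 0.76 in E17 endocardial libraries (SD, n = 2 each), and 7.0 ± 1.38 in E13 coronary libraries, against 9.67 ± 1.2 in E13 endocardial libraries (SD, n = 4 each). At E17 it was lower in coronary cells, at -4.88 ± 0.32 (adjusted p = 1.2e-07). The E17 minus E13 difference was -2.80 ± 0.30 in coronary cells (adjusted p = 1.1e-05) and 1.62 ± 0.20 in endocardial cells (adjusted p = 9.73e-05). Pla2g4a and Ptgs2 thus both had their highest mean in E17 endocardial and their lowest in E17 coronary cells, but at E13 Pla2g4a was not on the coronary side. Its E13 difference of -0.47 ± 0.18 (adjusted p = 0.0385) did not pass without E13 endocardial replicate 1, 2 or 3, E13 coronary replicate 1, 2 or 4, or E17 endocardial replicate 1 or 2 (0.0537 to 0.105), nor with the batch as a block (0.051).

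Mgll, the monoacylglycerol lipase that hydrolyses 2-arachidonoylglycerol, was higher in coronary cells at both stages. It averaged 668 ± 194 CPM in E17 coronary, against 39.6 ± 2.72 CPM in E17 endocardial libraries (SD, n = 2 each), and 32.8 ± 9.35 CPM in E13 coronary, against 6.32 ± 1.06 CPM in E13 endocardial libraries (SD, n = 4 each). The difference was 4.08 ± 0.28 at E17 (adjusted p = 1.64e-07) and 2.37 ± 0.21 at E13 (adjusted p = 1.56e-06), and the difference between stages was 1.71 ± 0.33 (adjusted p = 0.00208). Pla2g12a, a secreted phospholipase A2, changed sides as Ptgs2 and Ptgis did: it was lower in coronary cells at E17 (-0.80 ± 0.14, adjusted p = 0.000437) and higher at E13 (1.04 ± 0.10, adjusted p = 1.94e-06), with a difference between stages of -1.84 ± 0.17 (adjusted p = 9.12e-06). Pla2g6, a calcium-independent phospholipase A2, was lower in coronary cells at E13 (-0.39 ± 0.08, adjusted p = 0.00114) and had -0.14 ± 0.12 at E17 (adjusted p = 0.35). In all, 1 of 8 tested release genes was higher and 3 lower at E17, and 4 were higher and 3 lower at E13. These counts stand beside 26.5% higher and 26.1% lower of all tested genes at E17, and 30.1% and 29.9% at E13. Pla2g2d, Pla2g2e, Pla2g3 and Pla2g10 were below the filter.

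Of the 4 genes that return arachidonate to phospholipids, Lpcat3, a lysophospholipid acyltransferase, was lower in coronary cells at E17 (-1.37 ± 0.10, adjusted p = 2.78e-07) and at E13 (-0.74 ± 0.07, adjusted p = 1.77e-06). The acyl-CoA synthetases were higher in coronary cells: Acsl3 by 0.88 ± 0.11 at E17 and 1.02 ± 0.08 at E13, and Acsl4 by 0.57 ± 0.11 at E17 and 0.48 ± 0.08 at E13 (adjusted p = 0.000882 at most). Mboat7, which places arachidonate in phosphatidylinositol, was lower in coronary cells at E17 (-0.38 ± 0.08, adjusted p = 0.00177) and had 0.07 ± 0.06 at E13 (adjusted p = 0.296).

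Among the other terminal synthases, Ptges3, the co-chaperone p23 that also has cytosolic prostaglandin E synthase activity, averaged 128 ± 7.46 CPM in E17 coronary, 110 ± 1.64 in E17 endocardial (SD, n = 2 each), 148 ± 7.47 in E13 coronary and 121 ± 9.05 CPM in E13 endocardial libraries (SD, n = 4 each). It was higher in coronary cells at E13 by 0.29 ± 0.06 (adjusted p = 0.000905). At E17 it differed by 0.22 ± 0.08 (adjusted p = 0.0408), which did not pass without E13 endocardial replicate 3, either E17 endocardial library or E17 coronary replicate 1 (0.0538 to 0.159), nor with no filter on low counts (0.0534). Ptges2, the membrane-associated synthase, was higher in coronary cells at E13 (0.41 ± 0.11, adjusted p = 0.0072) and had 0.14 ± 0.16 at E17 (adjusted p = 0.491).

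Akr1b3, an aldose reductase with prostaglandin F synthase activity, was higher in coronary cells at E17 (0.42 ± 0.08, adjusted p = 0.000572) and at E13 (0.91 ± 0.05, adjusted p = 4.06e-08). Akr1b8, a related reductase, changed sides: 2.27 ± 0.10 CPM in E17 coronary, against 10.3 ± 1.59 CPM in E17 endocardial libraries (SD, n = 2 each; adjusted p = 5.01e-06), and 10.8 ± 0.71 CPM in E13 coronary, against 7.74 ± 1.53 CPM in E13 endocardial libraries (SD, n = 4 each; adjusted p = 0.0104). Cbr1, a carbonyl reductase that acts on prostaglandin E2, was lower in coronary cells at E17 (-0.56 ± 0.10, adjusted p = 0.00057) and at E13 (-0.56 ± 0.07, adjusted p = 2.45e-05). Of the 7 tested, 2 were higher and 3 lower at E17, and 5 were higher and 1 lower at E13. The shares of all tested genes were 26.5% higher and 26.1% lower at E17, and 30.1% and 29.9% at E13. Hpgds and Tbxas1, the hematopoietic prostaglandin D synthase and the thromboxane synthase, were below the filter, at no more than 0.321 CPM in any group mean.

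Genes that carry and break down prostaglandins passed on both sides. Of 3 transporters tested, 1 was higher and 1 lower in coronary cells at E17, and 2 were higher and 1 lower at E13. Of 4 breakdown genes, 2 were higher and 1 lower at E17, and 2 were higher and 2 lower at E13. Beside them, 26.5% of all tested genes were higher and 26.1% lower at E17, and 30.1% and 29.9% at E13. Abcc4, an exporter of prostaglandin E2, averaged 48.7 ± 0.73 CPM in E17 coronary, against 4.87 ± 1.09 CPM in E17 endocardial libraries (SD, n = 2 each), and was higher in coronary cells at E17 (3.33 ± 0.22, adjusted p = 1.4e-07) and at E13 (2.02 ± 0.15, adjusted p = 2.75e-07). Hpgd, the 15-hydroxyprostaglandin dehydrogenase that inactivates prostaglandins, averaged 22.0 ± 2.15 CPM in E17 coronary, against 0.848 ± 0.19 CPM in E17 endocardial libraries (SD, n = 2 each), and 5.21 ± 1.08 CPM in E13 coronary, against 1.13 ± 0.15 CPM in E13 endocardial libraries (SD, n = 4 each). It was higher in coronary cells by 4.68 ± 0.27 at E17 (adjusted p = 4.18e-08) and 2.20 ± 0.18 at E13 (adjusted p = 6.1e-07), with a difference between stages of 2.48 ± 0.32 (adjusted p = 0.000107). Hpgd was higher at E17 than at E13 in coronary cells, by 2.08 ± 0.18 (adjusted p = 1.65e-06), where Ptgs2 and Ptgis had lower levels at E17.

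Slco2a1, the prostaglandin uptake transporter, was lower in coronary cells at E13 (-1.38 ± 0.12, adjusted p = 1.02e-06). At E17 it differed by -0.47 ± 0.16 (adjusted p = 0.0295), which did not pass without E17 coronary replicate 1 (0.309), without E17 endocardial replicate 1 (0.165) or with only the E17 libraries (0.07). Slco3a1, another transporter of the family, was higher in coronary cells at E13 (0.63 ± 0.10, adjusted p = 0.000117) and had -0.19 ± 0.14 at E17 (adjusted p = 0.259). Zadh2, a prostaglandin reductase, was lower in coronary cells at E13 (-0.52 ± 0.05, adjusted p = 1.57e-06) and had 0.14 ± 0.07 at E17 (adjusted p = 0.109). Ptgr2, a reductase of 15-keto prostaglandins, was lower in coronary cells at E13 (-0.36 ± 0.04, adjusted p = 2.16e-05). Its E17 difference of -0.24 ± 0.06 (adjusted p = 0.00781) did not pass without E17 endocardial replicate 2 (0.0704), without E17 coronary replicate 1 (0.0555), with no filter on low counts (0.0512) or by DESeq2 (0.0594). An antisense gene, Gm47484, covers 32.0% of the Ptgr2 exon length.

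Prostanoid receptors were mostly low. Ptger1 was the only one above 10 CPM, but the counting is not stated to use strand and its values are uncertain. It averaged 64.8 ± 7.33 CPM in E17 coronary, against 86.1 ± 10.1 CPM in E17 endocardial libraries (SD, n = 2 each), and 61.6 ± 7.34 CPM in E13 coronary, against 77.2 ± 1.52 CPM in E13 endocardial libraries (SD, n = 4 each). Its E17 difference (adjusted p = 0.0118) did not pass without E17 endocardial replicate 1 (0.126) or E17 coronary replicate 1 (0.119). The remaining receptors are named to complete the list, after their values were seen.

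Tbxa2r, the thromboxane receptor, had 9.95 ± 1.94 CPM in E17 coronary, against 1.46 ± 0.41 CPM in E17 endocardial libraries (SD, n = 2 each), and 3.44 ± 0.94 CPM in E13 coronary, against 3.78 ± 1.09 CPM in E13 endocardial libraries (SD, n = 4 each). It was higher in coronary cells at E17 by 2.76 ± 0.38 (adjusted p = 6.18e-05), and the difference between stages was 2.89 ± 0.45 (adjusted p = 0.000422). Ptgir, the prostacyclin receptor, had 1.87 ± 0.36 CPM in E17 coronary and 0.298 ± 0.04 CPM in E17 endocardial libraries (SD, n = 2 each; adjusted p = 0.00642, or 0.0535 without E17 endocardial replicate 1), and averaged under 1 CPM in both E13 groups. Ptger4, an EP receptor for prostaglandin E2, was higher at E17 than at E13 in coronary cells by 1.90 ± 0.38 (adjusted p = 0.0012) and in endocardial cells by 2.69 ± 0.41 (adjusted p = 0.000373). It averaged 6.76 ± 2.27 CPM in E17 coronary and 4.58 ± 1.16 CPM in E17 endocardial libraries (SD, n = 2 each), and 1.8 ± 0.65 CPM in E13 coronary and 0.702 ± 0.36 CPM in E13 endocardial libraries (SD, n = 4 each). Ptgfr, the prostaglandin F receptor, averaged at most 2.1 CPM, and Ptger3 and Ptgdr at most 0.333 and 0.575 CPM in any group. Ptger2 and Ptgdr2 were below the filter.

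Among enzymes of other eicosanoid routes, Alox12, the platelet-type 12-lipoxygenase, averaged 45.0 ± 4.84 CPM in E17 coronary, against 1.65 ± 0.14 CPM in E17 endocardial libraries (SD, n = 2 each), and 9.3 ± 2.78 CPM in E13 coronary, against 0.841 ± 0.22 CPM in E13 endocardial libraries (SD, n = 4 each). It was higher in coronary cells at E17 (4.76 ± 0.31, adjusted p = 1.16e-07) and at E13 (3.45 ± 0.23, adjusted p = 1.2e-07). Ephx2, the soluble epoxide hydrolase, changed sides: 1.76 ± 0.12 CPM in E17 coronary, against 24.7 ± 3.36 CPM in E17 endocardial libraries (SD, n = 2 each; adjusted p = 1.95e-07), and 2.73 ± 0.21 CPM in E13 coronary, against 1.71 ± 0.49 CPM in E13 endocardial libraries (SD, n = 4 each; adjusted p = 0.00885). Its difference between stages was -4.46 ± 0.32 (adjusted p = 1.44e-06), and in endocardial cells it was higher at E17 than at E13 by 3.83 ± 0.20 (adjusted p = 1.89e-07). Cyp2j6, of the cytochrome P450 family, was lower in coronary cells at E17 (-0.62 ± 0.12, adjusted p = 0.00105) and E13 (-0.89 ± 0.09, adjusted p = 2.47e-06). Lta4h, the leukotriene A4 hydrolase, was higher in coronary cells at E17 (0.77 ± 0.09, adjusted p = 9.1e-06) and E13 (0.24 ± 0.06, adjusted p = 0.00392). Alox5, Alox15, Alox8 and Alox12e were below the filter. The 10 other tested genes, Alox5ap, Cyp2j9, Faah, Fam213b, Ltc4s, Pla2g4b, Pla2g4c, Pla2g5, Ptgds and Ptgr1, had highest group means of 0.649 to 8.31 CPM.

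**Figure D5:**
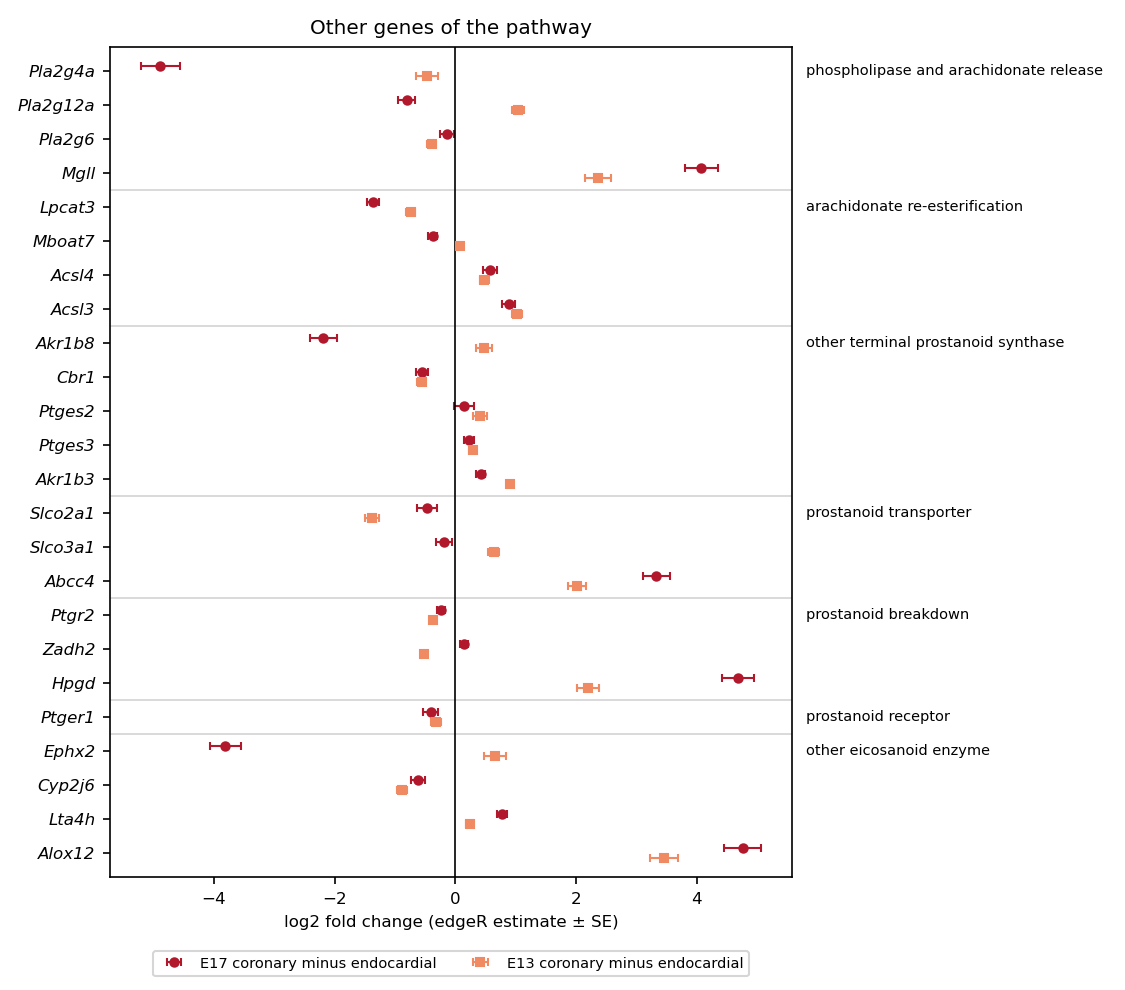
Coronary minus endocardial log2 fold change (edgeR estimate, bar = SE) of the 24 other pathway genes with a group mean of at least 10 CPM, at E17 (circles) and E13 (squares), grouped by role. Pla2g4a and Ephx2 reach -4.88 and -3.81 at E17, Alox12, Hpgd, Mgll and Abcc4 lie above 2 at both stages, and Pla2g12a, Akr1b8 and Ephx2 passed the test on opposite sides of 0 at the 2 stages.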

How the data were processed

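Poly(A) libraries were made with the NEBNext Ultra kit and sequenced as single reads, per the labels' protocols. The deposited values are expected counts per Ensembl gene; the submitters' processing notes name CASAVA 1.8.2, cutadapt 1.3, RSEM 1.2.3 and build GRCm38. RSEM splits reads between genes, and 18.3% of values were not whole, so expected counts were rounded; only Ptgis among the 4 genes had non-whole values, in 2 libraries. Symbols came from GENCODE vM21.

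Genes were filtered with filterByExpr (minimum count 10, total 15), leaving 15171, and 4 group means were fitted to all 12 libraries with edgeR 4.0.16 (R 4.3.3, TMM, quasi-likelihood, Benjamini-Hochberg at 0.05; 8 residual degrees of freedom, common biological coefficient of variation 0.126). CPM use TMM-scaled library sizes. Members and lists were chosen with earlier results of these data known. Genes were named by a rule: the 4 members, list genes with a group mean of at least 10 CPM, and for each member the 3 genes of most similar pattern; the low receptors were added later. One result is not reported here. The fit was checked on simulated data. Replicate libraries differed by 4.21 to 36.5 chi-square units per gene, so none repeats another. Whether replicates are separate litters is not stated, and p-values cover only the spread of these libraries.

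The batch label pairs the populations: deviations from group means correlated within each of the 6 batches at 0.344 to 0.575 over 10832 genes. With 2 libraries in each E17 group, the deviations of batches 5 and 6 mirror each other, so both have the same value, 0.432, by construction. The main fit left the batch out. Alternatives were DESeq2 1.42.0 (size factors, and its Wald test), no low-count filter, the batch as a replicate block, single-stage fits and leaving out each library.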

Additional observations from a re-analysis of the deposited data

Results flagged for a closer look

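In groups of 4 libraries, 1 library stood apart from the other 3 by Dixon's criterion (95% level) in 7 of the 88 gene and group combinations examined (44 genes, both E13 groups); chance does this in about 1 of 20. Ptgs2 was at 1.65 CPM in E13 endocardial replicate 1, the highest of its group. Ptgis was at 55.0 CPM and Ptges at 0.595 CPM in E13 coronary replicate 1, the lowest of that group for both, and Ptges3 was at 160.0 CPM in the same library, the highest. Ptger1 was at 75.0 CPM in E13 endocardial replicate 3 (lowest), Ptgfr at 1.46 CPM in E13 coronary replicate 3 (highest) and Ptgir at 0.0595 CPM in E13 endocardial replicate 4 (lowest).

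The coronary minus endocardial difference of Ptgs2 and of Ptgis was negative in both E17 batches and positive in all 4 E13 batches, and differed by -6.10 and -3.17 on the log2 scale between stages; these differences were not tested, since the genes were chosen on them. For other pathway genes the difference between stages passed the edgeR test. It was negative for Pla2g4a (-4.42), Ephx2 (-4.46), Pla2g5 (-4.01), Faah (-3.02), Akr1b8 (-2.66), Pla2g12a (-1.84), Fam213b (-1.59), Slco3a1 (-0.82), Lpcat3 (-0.63), Akr1b3 (-0.49) and Mboat7 (-0.45). It was positive for Tbxa2r (2.89), Hpgd (2.48), Mgll (1.71), Abcc4 (1.31), Alox12 (1.31), Slco2a1 (0.91), Zadh2 (0.66) and Lta4h (0.54). For Alox12 it did not pass without E13 endocardial replicate 2, either E17 endocardial library or E17 coronary replicate 2 (adjusted p = 0.0542 to 0.0816). For Fam213b it did not pass without E17 coronary replicate 2 (adjusted p = 0.0648), and for Pla2g5 it did not pass without either E17 endocardial library or E17 coronary replicate 2 (adjusted p = 0.0502 to 0.167). Pla2g5, Faah and Fam213b, with group means of at most 3.13 CPM, were named after their values were seen.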

How the results depend on the processing

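No alternative turned the sign of a called result. Leaving out 1 library at a time moved the E17 values of 3 members beyond the spread of replicates. For Ptgs2 the log2 difference ran from -4.84 to -3.86 (E17 coronary minus endocardial), from -3.14 to -2.15 (E17 minus E13 in coronary cells) and from -6.67 to -5.66 (between stages). For Ptgis these ran from -1.37 to -0.68, from -3.38 to -2.67 and from -3.56 to -2.85, and for Ptges from 0.61 to 2.99, from -3.05 to -0.67 and from -1.47 to 0.94, so that the last, 0.14 with all libraries, has no settled sign: it was also negative without E13 endocardial replicate 2 or 4, E13 coronary replicate 1 or E17 endocardial replicate 2. The ends of the Ptgs2 and Ptgis ranges came from E17 coronary replicates 1 and 2, so a group of 2 libraries limits these values.

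Pathway genes lower at E17 than at E13 within endocardial libraries numbered 5, and 1 to 7 with 1 library left out. Immediate early genes lower in coronary cells numbered 3 at E17 (1 to 4 with 1 library left out) and 0 at E13 (0 to 1, by edgeR; 1 at an unadjusted p under 0.05 and 0 by DESeq2), and those higher at E17 than E13 in coronary cells 11 (7 to 12). With the batch as a replicate block, 13 were higher at E13, 3 were higher and 6 lower at E17, and the difference between stages was negative for 13; with only the E17 libraries, 3 were higher and 9 lower. The replicate block moved no member and no count of pathway genes by over 1.5 times. Over the 40 tested pathway genes and all alternatives, 99 values lost a call and 27 gained one, 1764 kept a call and 1260 stayed without one. Ptges, with 1 to 41 counts per library, is limited by depth.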
